A study of Homo sapiens with 6 samples.

Results

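The genes described here encode the chaperonins of human cells, and they were taken from the deposited table by symbol. They are the 8 subunits of the cytosolic chaperonin CCT (also called TRiC), which are TCP1, CCT2, CCT3, CCT4, CCT5, CCT6A, CCT7 and CCT8, and the mitochondrial pair HSPD1 (HSP60) and HSPE1 (HSP10). All 10 were found among the 19421 genes on one common scale, and all 10 were among the 11599 genes tested.

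The cells were A431, an established line from a human squamous carcinoma, kept in DMEM with 10% FBS, and their RNA was sequenced. The series holds 3 samples with an shRNA against ARID1A (shARID1A) and 3 with a control shRNA (shCONTROL). The promoter driving the shRNA, the time of its expression and whether the samples of a group came from separate cultures were not stated in the labels. P-values therefore reflect only how far these samples spread, which may be technical. ARID1A, the DNA-binding subunit of the BAF chromatin remodelling complex, stood at 6.70, 7.62 and 7.31 FPKM in shARID1A and at 22.8, 22.8 and 23.8 FPKM in shCONTROL, so each sample matched its label and part of the transcript remained.

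A chaperonin is a barrel built of stacked rings in which an unfolded protein is enclosed and folded at the expense of ATP. CCT has a pair of rings, each holding 1 copy of every one of its 8 related subunits, and it folds actin, the tubulins and WD40-repeat proteins such as the mitotic activator CDC20. HSP60 forms rings of identical subunits in the mitochondrial matrix and is closed by a lid of HSP10.

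FPKM is a read count per kilobase of gene length and scaled to the reads assigned in a sample. Levels of different genes can be set side by side only as far as the listed gene lengths hold. A difference between groups is given as the mean log2(FPKM + 1) of shARID1A minus that of shCONTROL, a scale on which changes of weakly expressed genes look smaller than they are. Adjusted p-values are limma's, adjusted by Benjamini-Hochberg over the 11599 genes tested, and a gene was called at an adjusted p below 0.05. Assigned reads per sample, worked back from the FPKM steps, numbered 32561039 to 36453744 in shARID1A and 31658040 to 34647924 in shCONTROL. Of 8 epithelial markers, 7 were above the minimum mean of 1 FPKM for testing and KRT14 was not. KRT5, TP63 and DSP were called lower, against 10.9% of all genes. EGFR (log2 fold change 0.22), KRT17 (0.11), EPCAM (0.01) and CDH1 (-0.16) were not called. With 1 sample left out in turn, 1 to 3 of these markers were called lower, against 356 to 2287 of the 11599 genes. Without shARID1A replicate 3, 2 of them were called higher, against 9.62% of all genes. Of 8 markers of fibroblasts, endothelium and leukocytes, COL1A1 and CD68 alone reached that mean, and the 8 summed to 11.5 to 18.0 FPKM in shARID1A and 14.7 to 18.3 FPKM in shCONTROL.

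None of the 10 chaperonin genes passed the test between the knockdown and the control samples, and in shARID1A replicates 2 and 3 lay at opposite ends for nearly all of them. The 8 CCT subunits had log2 fold changes between 0.00 and 0.33, none of them negative, though the sign turned for CCT2 in 5, for CCT6A in 2 and for CCT4 in 1 of 17 alternatives (CCT2 and CCT6A after quantile normalization, and all 3 without shARID1A replicate 3). HSPD1 had a log2 fold change of 0.21 and HSPE1 one of -0.21. CCT5, with 216 ± 22.6 FPKM in shARID1A and 171 ± 6.39 FPKM in shCONTROL (SD, n = 3 each), lay nearest to the threshold. At an unadjusted p below 0.05 there were 2 members, CCT5 and CCT7. With voom on the recovered reads 1 member was called, CCT5, against 6.41% of all genes called higher in that fit. Over all genes tested 16.8% were called, 5.85% higher and 10.9% lower, and 11.4% were higher at an unadjusted p below 0.05. The members' counts of 0 of 10 and 2 of 10 are to be read against the first and the last of these shares. In the table as a whole, 38.1% of the genes tested had a positive log2 fold change and the median was -0.08. The median of the 8 CCT subunits was 0.12. In bulk RNA, fewer cells of a kind and less RNA per cell cannot be told apart.

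**Figure D1:**
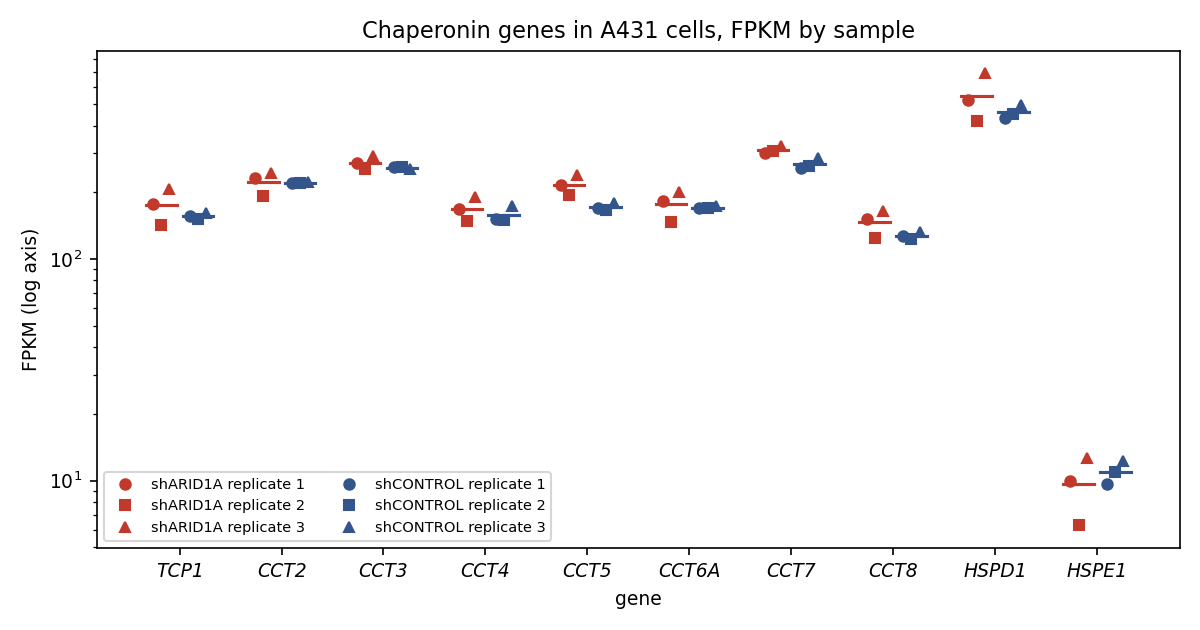
FPKM of each chaperonin gene in every sample, on a log axis, with shARID1A in red and shCONTROL in blue; the symbol gives the replicate number and the bar the group mean. In shARID1A, replicate 3 was the highest sample for all 10 genes and replicate 2 the lowest for 9, and HSPE1 stood far below the rest in all 6 samples.

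The samples of the knockdown group stood apart from each other in these genes. Replicate 3 of shARID1A was the highest of its group for 10 of 10 members, and replicate 2 was the lowest for 9 of 10, CCT7 being the exception. In shCONTROL, replicate 3 was the highest for 9 of 10. The summed FPKM of the 8 CCT subunits was 1699, 1509 and 1860 in shARID1A replicates 1, 2 and 3, against 1510.2, 1500.2 and 1579 in shCONTROL. Replicate 2 of shARID1A thus lay inside the control range and the other 2 above it. These sums correspond to 0.432%, 0.382% and 0.474% of all assigned reads in shARID1A and to 0.381%, 0.378% and 0.398% in shCONTROL. Across the 8 subunits the median coefficient of variation was 12.2% in shARID1A and 3.41% in shCONTROL. The 613 genes tested with a mean of at least 100 FPKM had medians of 10.6% in shARID1A and 4.74% in shCONTROL, so the wider spread in shARID1A was shared by other abundant genes.

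Samples of equal replicate number can also be set against each other, though the labels give no pairing. Across genes, equal numbers deviated together in these same data (correlations of 0.321, 0.187 and 0.315), which is a hint only. Positive too were shARID1A replicate 1 with shCONTROL replicate 2 (0.086) and shARID1A replicate 2 with shCONTROL replicate 1 (0.055), and the other unequal pairs were negative. In the pairs of number 1 and number 3 all 10 members were higher in the knockdown sample, with median log2 differences of the CCT subunits of 0.16 and 0.20. The pair of number 2 had 3 of 10 members higher, CCT5, CCT7 and CCT8, and a CCT median of -0.03. The medians over all genes tested in the same 3 pairs were -0.08, -0.12 and -0.03 for numbers 1, 2 and 3, so the CCT median was above the general one in each pair. Without shARID1A replicate 2 the median log2 fold change of the CCT subunits was 0.20 and 2 members were called, CCT5 (adjusted p = 0.0223) and CCT8 (adjusted p = 0.0457), by limma, against 5.41% of all genes called higher. Without shARID1A replicate 3 the median was 0.03 and 1 member was called, CCT5 (limma, adjusted p = 0.0498), against 9.62% of all genes called higher.

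**Figure D2:**
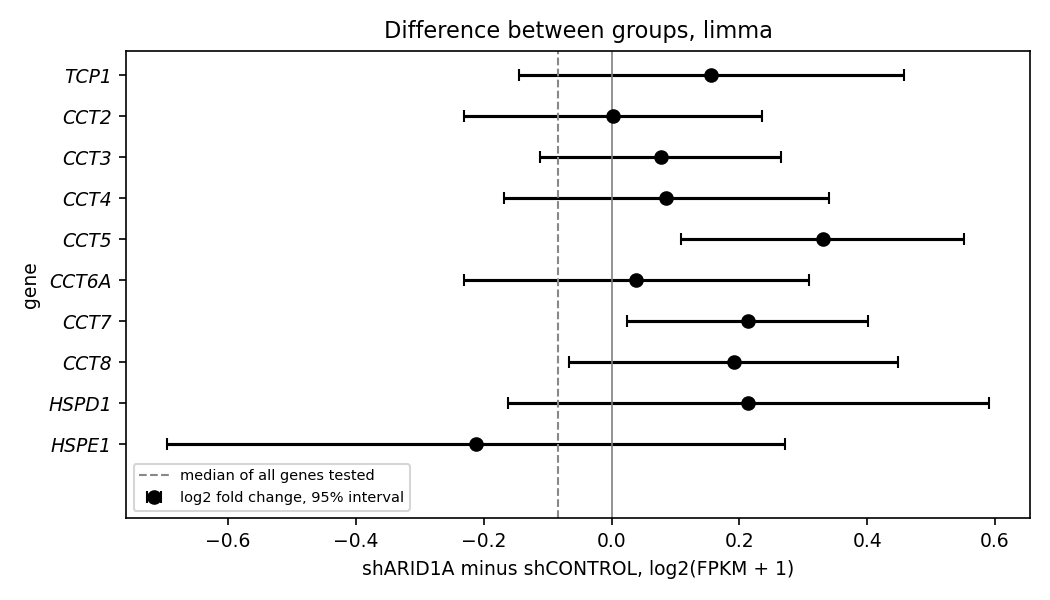
Log2 fold change of each chaperonin gene, shARID1A minus shCONTROL, with its 95% interval from limma; the dashed line is the median of all genes tested. Intervals of CCT5 and CCT7 lie above 0 before adjustment for multiple tests, and the other 8 include 0.

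Of the CCT subunits, CCT5 (gene ID 22948, the epsilon subunit) differed most between the groups. CCT5 stood at 215, 194 and 239 FPKM in shARID1A and at 169.8, 165 and 178 FPKM in shCONTROL. Every knockdown sample was above every control sample. The difference was 0.33 on the log2 scale, its standard error 0.097 and its 95% interval 0.11 to 0.55 (limma, adjusted p = 0.0505). With a replicate block CCT5 was called (adjusted p = 0.0308), against 8.12% of all genes called higher in that fit. It was also called after upper quartile scaling (adjusted p = 0.0370, 6.65% of all genes called higher) and with voom (adjusted p = 0.0404, 6.41%), and it was not called after quantile normalization (adjusted p = 0.124). Without shCONTROL replicate 2 its adjusted p was 0.199. The call of CCT5 therefore turned on the setting, while its sign was positive in all 17 alternatives, with log2 fold changes of 0.25 to 0.41.

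CCT7 (gene ID 10574, the eta subunit) was the other member whose groups did not overlap. CCT7 stood at 302, 308 and 325 FPKM in shARID1A and at 257, 263 and 286 FPKM in shCONTROL. Its lowest knockdown value was above its highest control value, by less than the range within either group. The log2 difference was 0.21, its standard error 0.082 and its 95% interval 0.02 to 0.40 (limma, adjusted p = 0.111), and no alternative called it. Of all genes tested, 13.4% had all knockdown values above all control values and 25.4% had them below, against which 2 of 10 members above and 0 of 10 below are to be read. An exact two-sided permutation test on the 6 samples gave p = 0.1 for CCT5 and for CCT7, the smallest that 3 against 3 allow, and 0.3 to 1 for the other 8.

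CCT8 (gene ID 10694, the theta subunit) had 151, 124 and 164 FPKM in shARID1A and 127, 123 and 132 FPKM in shCONTROL. Replicates 1 and 3 of shARID1A were above all controls, while replicate 2 was among them. The log2 difference was 0.19 (standard error 0.113) (limma, adjusted p = 0.268). TCP1 (gene ID 6950), the alpha subunit and the one first described, had 177, 142 and 208 FPKM in shARID1A and 156, 151 and 160.5 FPKM in shCONTROL. Here the knockdown samples reached both below and above the controls, and the standard deviations were 32.7 FPKM in shARID1A and 4.80 FPKM in shCONTROL.

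CCT3, CCT4, CCT6A and CCT2 were closest to no difference. CCT3 (gene ID 7203, gamma) averaged 272 ± 18.2 FPKM in shARID1A and 258 ± 3.24 FPKM in shCONTROL (SD, n = 3 each), and CCT4 (gene ID 10575, delta) averaged 169 ± 20.9 FPKM in shARID1A and 158 ± 12.5 FPKM in shCONTROL. CCT6A (gene ID 908, zeta) had 182, 147 and 201 FPKM in shARID1A and 169, 169 and 173 FPKM in shCONTROL. CCT2 (gene ID 10576, beta) had 231, 192 and 243 FPKM in shARID1A and 219.7, 219 and 222 FPKM in shCONTROL. For CCT6A and CCT2 alike the 3 control values lay between the lowest and the highest knockdown value. The log2 fold change of CCT2 was 0.00 with a 95% interval of -0.23 to 0.24, that of CCT6A 0.04 with an interval of -0.23 to 0.31, and both signs turned after quantile normalization and without shARID1A replicate 3. Differences of up to the ends of these intervals are thus compatible with the data, and no equality of the groups is shown.

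CCT6A has relatives with which reads may be shared. CCT6B, a paralog known for its expression in testis, was at 0.113 to 0.122 FPKM in shARID1A and 0.167 to 0.300 FPKM in shCONTROL. Behind these values lay only 7 to 18 reads per sample, and CCT6B was below the minimum mean of 1 FPKM and was not tested. All knockdown values were below all control values in 25.4% of the genes tested. The pseudogene CCT6P1 was at 2.54 to 4.37 FPKM in shARID1A and 3.46 to 5.43 FPKM in shCONTROL. The pseudogene CCT6P3 was at 1.20 to 1.48 FPKM in shARID1A and 1.90 to 2.69 FPKM in shCONTROL. CCT6P3 was called lower (limma, adjusted p = 0.0329), against 10.9% of all genes, and CCT6P1 was not called. CCT6P3 rested on 88 to 209 reads per sample, and its call was not followed through the alternatives. How reads that match more than 1 of these genes were counted was not stated, so the level of CCT6A is uncertain to that extent.

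The order of the CCT subunits by FPKM was nearly the same in both groups. In shARID1A it ran CCT7, CCT3, CCT2, CCT5, CCT6A, TCP1, CCT4 and CCT8, and the ranges of neighbours overlapped from CCT2 down to CCT8. In shCONTROL it ran CCT7, CCT3, CCT2, CCT5, CCT6A, CCT4, TCP1 and CCT8, with overlap between CCT7 and CCT3 and from CCT5 down to TCP1. The lowest, CCT8, stood at 146 ± 20.5 FPKM in shARID1A and 127 ± 4.76 FPKM in shCONTROL, so the subunit RNAs spanned about a factor of 2. Order and span depend on the listed gene lengths, which ran from 2032 bases (CCT7) to 4032 bases (CCT5).

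**Figure D3:**
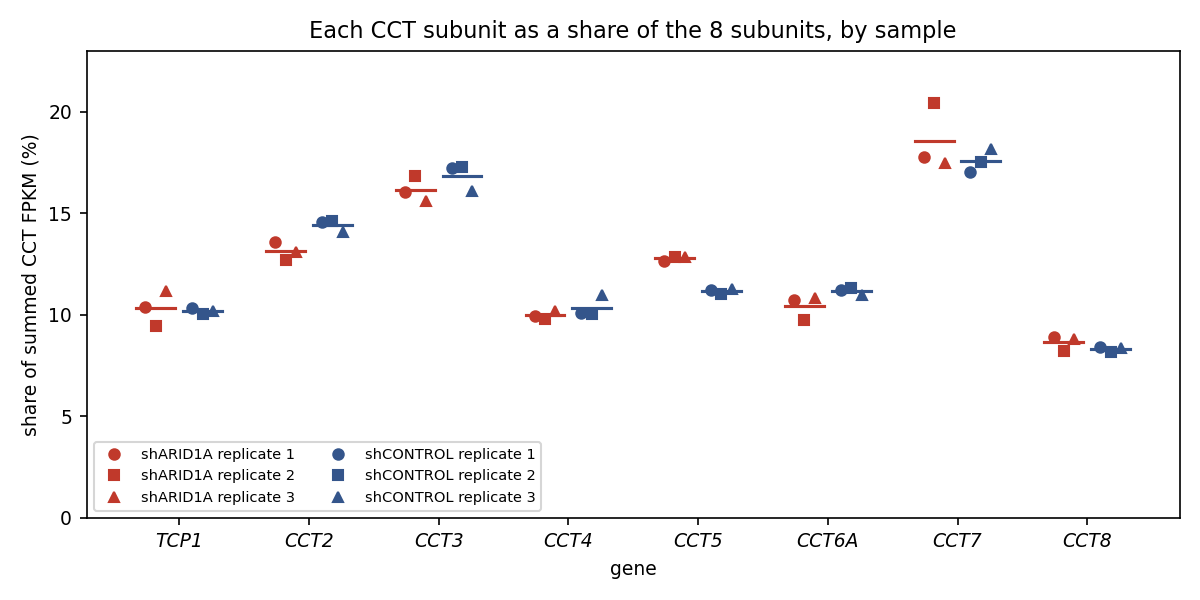
Each CCT subunit as a percentage of the summed FPKM of the 8 subunits in the same sample, shARID1A in red and shCONTROL in blue; symbols give replicate numbers and bars group means. CCT5 takes a larger share in all shARID1A samples, and CCT2 and CCT6A take a smaller one.

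As a share of the 8 subunits within each sample, a measure that no scaling by 1 factor per sample can move, CCT5 was higher and CCT2 and CCT6A were lower in shARID1A. CCT5 made up 12.7%, 12.9% and 12.9% of the summed CCT FPKM in shARID1A and 11.2%, 11.0% and 11.3% in shCONTROL. This share varied little within a group, also in the 2 knockdown samples whose absolute levels stood furthest apart. CCT2 made up 13.6%, 12.7% and 13.1% in shARID1A and 14.5%, 14.6% and 14.1% in shCONTROL. CCT6A made up 10.7%, 9.72% and 10.8% in shARID1A and 11.2%, 11.3% and 11.0% in shCONTROL. The other 5 shares overlapped between the groups. Shares of 1 sum depend on each other, so a higher share of 1 subunit lowers others. CCT5 had the largest log2 fold change of the 8 and CCT2 and CCT6A the smallest, so these shares restate those values. When every gene tested was divided by the CCT sum in the same way, 6.36% had all knockdown ratios above all control ratios and 36.5% had them below. The higher share of CCT5 and the lower ones of CCT2 and CCT6A are to be read against these.

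The mitochondrial pair gave different signs. HSPD1 (gene ID 3329), the HSP60 subunit, was the most abundant member and number 84 in mean FPKM among all genes. HSPD1 stood at 522, 419 and 688 FPKM in shARID1A and at 434, 449 and 494 FPKM in shCONTROL. Replicate 2 of shARID1A was below all controls and the other 2 were above them. The log2 difference was 0.21 (standard error 0.164) (limma, adjusted p = 0.392). It was 0.39 without shARID1A replicate 2 and 0.03 without shARID1A replicate 3. HSPD1 stood at 2.46, 2.22 and 2.96 times the mean of the CCT subunits in shARID1A and at 2.30, 2.39 and 2.50 times it in shCONTROL, overlapping ranges.

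HSPE1 (gene ID 3336), the HSP10 lid, was listed at a far lower level than its partner. HSPE1 had 9.93, 6.28 and 12.6 FPKM in shARID1A and 9.68, 10.9 and 12.2 FPKM in shCONTROL. The groups overlapped, with replicate 2 of shARID1A the lowest of the 6 samples, and the log2 fold change of -0.21 (limma, adjusted p = 0.518) turned to 0.04 without that library. HSPD1 exceeded HSPE1 52.5, 66.7 and 54.7 times in shARID1A and 44.9, 41.2 and 40.5 times in shCONTROL. That ratio was above all controls in each knockdown sample, though each of the 2 genes alone overlapped between the groups. How many other gene pairs separate in this way was not tested. Of single genes, 13.4% separated upward and 25.4% downward. Behind HSPE1 lay 195 to 415 reads per sample, against 33251 to 58047 for HSPD1. In RefSeq, HSPE1 lies wholly within the span of the readthrough gene HSPE1-MOB4, which was not among the rows analysed here. MOB4, a signalling adaptor and the other gene in that span, was at 0 to 0.031 FPKM in shARID1A and 0 to 0.0080 FPKM in shCONTROL. How the read counter treated reads that fall on 2 genes was not stated, and its part in the low HSPE1 values was not tested. The level of HSPE1 and the ratio to HSPD1 are therefore uncertain.

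The sequences upstream of these genes are shown because HSPD1 and HSPE1 are read outward from a shared stretch, and because 9 of the 10 members have a start-site window in RefSeq (GRCh38.p14); CCT6A has none in the table used. Each window covers 250 bases before a start site and 50 bases after it. The windows of HSPE1 and of the first HSPD1 start overlap by 204 bases, with 105 bases between the 2 start sites. The second HSPD1 window lies at a start inside the gene. The motifs sought on both strands were the heat shock elements TTCNNGAA and GAANNTTC, the E-box CACGTG, the CCAAT box, the GC box GGGCGG, the E2F-type TTTNNCGC and the ETS core CCGGAAGT. Capitals mark every match.
HSPE1, chr2:197500129-197500428, plus strand: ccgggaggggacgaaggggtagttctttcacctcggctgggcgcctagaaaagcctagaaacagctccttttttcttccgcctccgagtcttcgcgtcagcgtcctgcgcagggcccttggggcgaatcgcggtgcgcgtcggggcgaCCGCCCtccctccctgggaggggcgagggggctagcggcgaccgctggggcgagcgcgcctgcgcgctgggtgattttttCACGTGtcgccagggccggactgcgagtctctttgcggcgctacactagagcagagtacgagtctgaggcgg
HSPD1, second start, chr2:197499791-197500090, minus strand: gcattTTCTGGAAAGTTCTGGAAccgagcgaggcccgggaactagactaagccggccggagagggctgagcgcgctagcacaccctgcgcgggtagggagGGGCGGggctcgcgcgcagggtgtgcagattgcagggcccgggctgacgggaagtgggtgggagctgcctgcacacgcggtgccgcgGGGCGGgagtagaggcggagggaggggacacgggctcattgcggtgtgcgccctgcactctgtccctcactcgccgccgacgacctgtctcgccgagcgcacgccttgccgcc
CCT7, chr2:73234058-73234357, plus strand: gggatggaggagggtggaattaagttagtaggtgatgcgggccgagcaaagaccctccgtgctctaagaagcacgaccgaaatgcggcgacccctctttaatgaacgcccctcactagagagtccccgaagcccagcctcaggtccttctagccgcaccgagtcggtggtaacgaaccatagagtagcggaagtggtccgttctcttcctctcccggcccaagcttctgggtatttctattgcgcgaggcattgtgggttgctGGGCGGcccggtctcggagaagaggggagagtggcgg
CCT2, first start, chr12:69585209-69585508, plus strand: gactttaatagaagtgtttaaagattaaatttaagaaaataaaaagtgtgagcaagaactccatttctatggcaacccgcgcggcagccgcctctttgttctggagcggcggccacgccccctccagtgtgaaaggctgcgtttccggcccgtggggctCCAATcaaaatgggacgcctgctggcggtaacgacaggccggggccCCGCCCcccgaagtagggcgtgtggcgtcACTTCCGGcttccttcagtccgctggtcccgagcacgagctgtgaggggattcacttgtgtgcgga
TCP1, chr6:159789553-159789852, minus strand: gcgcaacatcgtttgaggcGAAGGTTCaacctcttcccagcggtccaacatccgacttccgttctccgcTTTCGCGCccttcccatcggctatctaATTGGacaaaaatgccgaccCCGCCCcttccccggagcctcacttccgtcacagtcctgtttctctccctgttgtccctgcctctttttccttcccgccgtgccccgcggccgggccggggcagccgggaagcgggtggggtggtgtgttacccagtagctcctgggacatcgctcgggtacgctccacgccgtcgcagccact

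The HSPE1 window held 1 E-box, 22 bases before the start, and the first HSPD1 window holds the same letters on its own strand. An E-box was present in 7.26% of all 35116 windows. At the second HSPD1 start, the motif TTCNNGAA had 2 matches and GAANNTTC had 1 that overlaps both; TTCNNGAA occurred in 7.74% and GAANNTTC in 6.77% of all windows. TCP1 held 1 GAANNTTC and 1 E2F-type match, a kind present in 6.89% of all windows. Among windows not shown, the first of CCT4 held 1 TTCNNGAA and the second of CCT2 held 1 GAANNTTC and 3 GC boxes. Those of CCT3 and CCT8 held CCAAT and GC boxes alone. CCT2 held a CCAAT box (34.6% of all windows), a GC box (45.0%) and, 16 bases before its first start, an ETS core (4.14%). CCT7, with the separated groups, held a GC box alone. The only CCT5 window in the table, at a start inside the gene, held none of the motifs. A match is a string of letters and says nothing about binding, and a window without a match says nothing about the factor.

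Genes whose profile over the 6 samples lay nearest to the mean CCT profile were looked for by the root mean square distance of centred log2(FPKM + 1) among 10767 protein-coding genes. The 5 nearest were APAF1, the apoptosome scaffold, the mitochondrial inner membrane protein CHCHD3, adenosine kinase ADK, the integrin subunit ITGA2 and the kinase MAPK9, at distances of 0.024 to 0.032. The CCT subunits themselves lay at 0.040 (CCT8) to 0.098 (CCT5). The 5 were picked as the nearest of 10767 genes, so their smaller distances say nothing about the subunits. Nearest to the mean of HSPD1 and HSPE1 were THOC1, AIDA and USP48, at 0.037 to 0.041, with HSPD1 and HSPE1 each at 0.115.

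**Figure D4:**
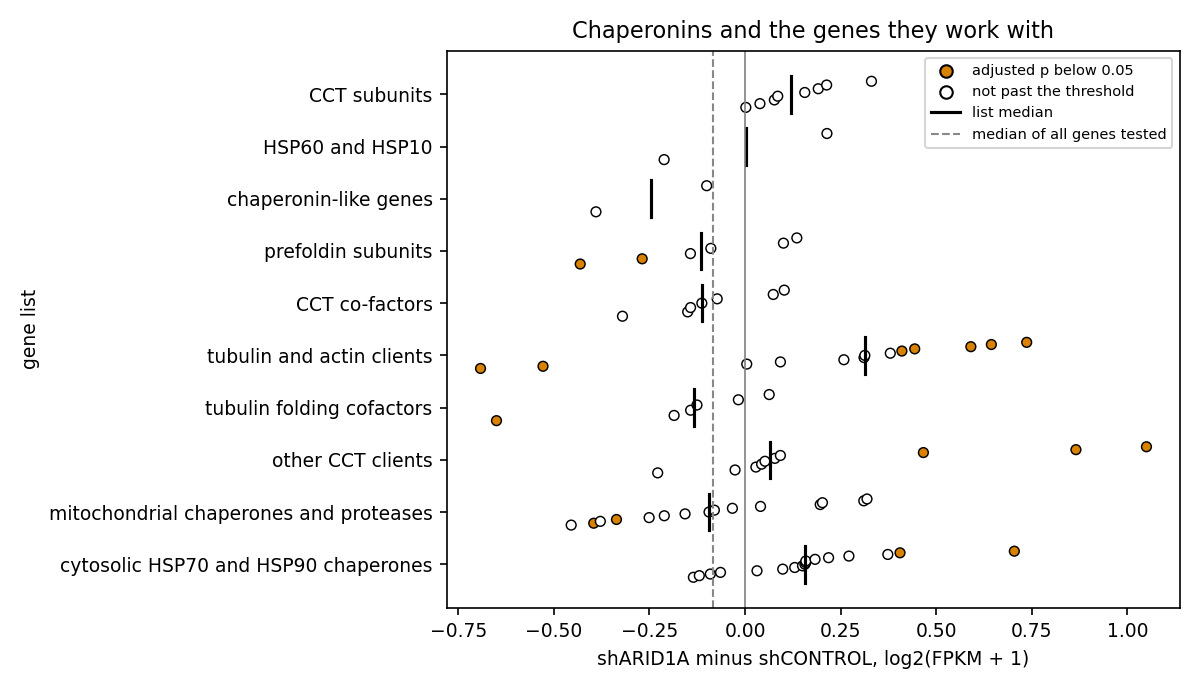
Log2 fold change, shARID1A minus shCONTROL, of every gene tested in the chaperonin groups and in 8 lists of genes they work with; filled points have an adjusted p below 0.05, black bars are list medians and the dashed line is the median of all genes tested. Calls are seen among tubulins, actin, CDC20, PLK1, CCNE1, HSPA8 and HSP90AB1 to the right, and among prefoldin, TBCA, GRPEL1, LONP1, TUBA1A and TUBB3 to the left.

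Among the genes for proteins that CCT folds, several passed the test. Of 13 actin and tubulin genes tested, 5 rose and 2 fell, against 5.85% and 10.9% of all genes, and the median log2 fold change was 0.31. TUBA1B, an alpha-tubulin, rose to 1967, 2294 and 1915 FPKM in shARID1A, against 1193, 1198 and 1306 FPKM in shCONTROL (log2 fold change 0.74, limma adjusted p = 0.00286). The beta-tubulins TUBB and TUBB4B rose with log2 fold changes of 0.59 and 0.41, while TUBB3, a beta-tubulin typical of neurons, fell by 0.53 on the log2 scale. The remaining calls, named after their values were seen, were ACTB (0.64) and TUBG1 (0.44) upward and TUBA1A (-0.69) downward. Tubulin and actin genes have close copies with which reads may be shared, so single levels are uncertain. Without shARID1A replicate 1 or shCONTROL replicate 1, 2 or 3 the list had 2, 2, 1 and 3 genes higher, against 2.35%, 2.18%, 1.99% and 4.31% of all genes, and without shARID1A replicate 3 it had 8, against 9.62% of all genes. The call of TUBB4B ended without any of the first 4 (adjusted p up to 0.109), that of TUBB without shCONTROL replicate 2 (0.0572). Those of ACTB, TUBG1 and TUBA1A ended without shARID1A replicate 1 and without shCONTROL replicate 1 or 2. That of TUBA1A also ended without shCONTROL replicate 3, after upper quartile scaling and after quantile normalization. Without the filter on low values all 3 ended, and the list had 2 genes higher and 1 lower, against 493 and 981 of 18973 genes.

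Of 10 other proteins known to be folded by CCT, 3 rose and 0 fell, against the same shares of all genes. They were the mitotic activator CDC20 at 164 ± 38.4 FPKM in shARID1A and 88.0 ± 3.41 FPKM in shCONTROL, the mitotic kinase PLK1 at 151 ± 33.8 FPKM in shARID1A and 71.2 ± 7.05 FPKM in shCONTROL, and cyclin E1 (CCNE1) at 4.08 ± 0.608 FPKM in shARID1A and 2.67 ± 0.368 FPKM in shCONTROL (SD, n = 3 each). CDC20 and PLK1 were called without each library in turn. The call of CCNE1 ended without shARID1A replicate 1 (adjusted p = 0.168) or shCONTROL replicate 1, 2 or 3 (0.0996 to 0.136), without the filter on low values (0.1), with an equal FPKM sum per sample (0.0519) and with voom (0.0545). In shARID1A, CDC20 and PLK1 ranked the samples in another order than CCT did. CDC20 stood at 165, 202 and 125 FPKM and PLK1 at 161, 178 and 113 FPKM in replicates 1, 2 and 3. The library lowest in CCT was thus the highest in both. CCNE1, at 4.75, 3.56 and 3.92 FPKM in the same replicates, was lowest in replicate 2, as CCT was.

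The helpers that work before and after CCT are to be read against 5.85% of all genes called higher and 10.9% called lower. Of 6 subunits of prefoldin, which delivers nascent actin and tubulin to CCT, 2 fell and 0 rose, and the median was -0.12. PFDN5 fell to 115, 107 and 112 FPKM in shARID1A, against 135, 134 and 133 FPKM in shCONTROL, and PFDN6 fell to 6.90 ± 0.681 FPKM in shARID1A, against 9.66 ± 1.06 FPKM in shCONTROL (limma, adjusted p = 0.0462 and 0.0425). These calls ended in 10 and 8 of the 17 alternatives, among them those without any library except shARID1A replicate 3 (adjusted p up to 0.191 and 0.146) and upper quartile scaling (0.0693 and 0.0585); PFDN5 also just missed the threshold with the replicate block (adjusted p = 0.05). Of 6 genes for the tubulin folding cofactors, which act after CCT, 1 fell. TBCA fell to 33.7, 21.5 and 32.9 FPKM in shARID1A, against 47.1, 44.7 and 45.5 FPKM in shCONTROL (limma, adjusted p = 0.0293), and its call ended without shCONTROL replicate 1, 2 or 3 (0.0745 to 0.0976). TBCE was at 9.26 ± 1.05 FPKM in shARID1A and 10.6 ± 0.341 FPKM in shCONTROL. Of 7 CCT co-factors 0 passed by limma, nearest being PDCL, a phosducin-like protein, at 6.86 ± 1.33 FPKM in shARID1A and 8.74 ± 0.632 FPKM in shCONTROL, which was called without shARID1A replicate 3 (adjusted p = 0.0152, with 2 of the list lower, against 19.7% of all genes), and then URI1, at 17.2 ± 1.12 FPKM in shARID1A and 19.1 ± 2.0 FPKM in shCONTROL. The chaperonin-like ciliopathy genes BBS10 and MKKS had log2 fold changes of -0.39 and -0.10, and BBS10 passed with the replicate block (adjusted p = 0.0481).

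Other chaperones were measured in the same organelle as HSP60 and in the cytosol beside CCT. Of 15 mitochondrial chaperones and proteases, 2 fell and 0 rose, against 10.9% of all genes lower and 5.85% higher, with a median of -0.09, close to that of all genes (-0.08). They were GRPEL1, the nucleotide exchange factor of mitochondrial HSP70, at 29.5 ± 2.90 FPKM in shARID1A and 39.1 ± 3.52 FPKM in shCONTROL, and the protease LONP1 at 22.9 ± 0.965 FPKM in shARID1A and 29.2 ± 2.42 FPKM in shCONTROL. The GRPEL1 call ended without shARID1A replicate 1 or shCONTROL replicate 1, 2 or 3 (adjusted p up to 0.188), that of LONP1 without shARID1A replicate 1 or 2 or shCONTROL replicate 1 or 2 (up to 0.217), and both after upper quartile scaling (0.0562 and 0.0636) and without the mean-variance trend (0.052 and 0.0578); that of LONP1 also ended after quantile normalization (0.0644). With the replicate block 2 rose and 3 fell, against 8.12% of all genes higher and 15.5% lower, and without shARID1A replicate 3 likewise 2 rose and 3 fell, against 9.62% higher and 19.7% lower. Of 17 cytosolic HSP70 and HSP90 system genes, 2 rose and 0 fell, against the same 5.85% and 10.9% of all genes. HSPA8, the constitutive HSP70 that also passes substrates to CCT, rose to 1247, 1295 and 1289 FPKM in shARID1A, against 739, 753 and 863 FPKM in shCONTROL (limma, adjusted p = 0.00251), and kept its call in all 17 alternatives. HSP90AB1 averaged 2907 ± 303 FPKM in shARID1A and 2192 ± 184 FPKM in shCONTROL, and its call ended without shARID1A replicate 1 or 2 or shCONTROL replicate 1 or 2 (adjusted p 0.0533 to 0.153) and without the filter on low values (0.19). Without that filter the calls of PFDN6, TBCA, TUBB4B, GRPEL1 and LONP1 ended too (0.0575 to 0.0757).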

How the data were processed

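RNA-seq of 6 A431 samples was analysed from 1 table in which the authors deposited FPKM values and gene lengths. HISAT2 2.0.5 and featureCounts 1.5.0-p1 are listed per the submitters' processing notes; settings, genome build and strandedness were not stated, so overlapping genes cannot be told apart. Of 19814 rows naming a gene, 19421 share one scale (value times length sums to the same constant in every sample); the last 393, with another denominator and no chaperonin, were left out. Reads per sample were recovered from the FPKM step, with 100% of values whole within 0.01 reads.

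The 11599 genes averaging 1 FPKM or more were tested with limma 3.58.1 (R 4.3.3; lmFit, eBayes with trend, two-sided) on log2(FPKM + 1), without covariates; the script was tested on simulated data. Single values were also compared by an exact permutation test. The members and lists were chosen with earlier results of these data known. Genes named are the members, ARID1A, CCT6B, up to 4 called genes per list (otherwise the 2 with the smallest p) and the genes nearest in profile. List symbols were matched through RefSeq gene IDs, which cover 19344 of the rows. Samples of equal number deviated together (correlations across genes of 0.321, 0.187 and 0.315), a hint from the data and not the labels, so a replicate block was an alternative. No 2 samples of a group differed as little as counting noise (chi-square per degree of freedom 5.38 to 84.7). Alternatives were other pseudocounts, filters and normalizations, eBayes settings, voom, the block and leaving out each library. Tables and plots were made in Python 3.11.15 with numpy 2.4.6, pandas 2.3.3 and matplotlib 3.10.9. Sequences are RefSeq's, GRCh38.p14.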

Additional observations from a re-analysis of the deposited data

How the results depend on the processing

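The count of 0 chaperonin members called became 1, always CCT5, after upper quartile scaling, with the replicate block and with voom on recovered reads. Called higher in those fits were 6.65%, 8.12% and 6.41% of all genes. With each library left out in turn the members' count ranged from 0 to 2, against 1.99% to 9.62% of all genes called higher. The members' count was 0 with pseudocounts of 0.1 and 5 FPKM, without a filter and with a mean of at least 5 FPKM. It was also 0 with an equal FPKM sum per sample, after quantile normalization, without the trend and with robust eBayes. Over all genes the number called, 1944, ranged from 587 (without shCONTROL replicate 2) to 3403 (without shARID1A replicate 3) with 1 library left out, and was 2740 with the replicate block. Among the calls 34.9% were higher in shARID1A (679 higher, 1265 lower), against 53.3% after quantile normalization (947 higher, 831 lower). No called gene chosen by the naming rule turned its sign. Signs of uncalled members turned for CCT2 in 5 alternatives, CCT6A in 2, and CCT4 and HSPE1 in 1 each; the cause was not tested. With 3 samples per group, the 95% intervals of the CCT subunits reached about 0.2 to 0.3 to either side on the log2 scale, which limits what could be detected.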
